A study of Mus musculus with 2 samples.

Results

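The miR-29 family was examined on the 2 microarrays of LLC-derived exosomes as the 6 mature mouse miRNAs from both arms of miR-29a, miR-29b and miR-29c, which the array lists as mmu-miR-29a-3p, mmu-miR-29b-3p, mmu-miR-29c-3p, mmu-miR-29a-5p, mmu-miR-29b-1-5p and mmu-miR-29c-5p. The prefix mmu, for mouse, is left out from here on. They were chosen by name, and all 6 were present among the 1881 mouse miRNAs of the array. LLC is a mouse Lewis lung carcinoma cell line, kept untreated and unmodified as far as the sample labels state. Exosomes were collected from its culture supernatant in 2 independent experiments, and the RNA was hybridized with Cy3 to 1 array for each experiment. There is thus 1 group of 2 arrays (replicates 1 and 2), with no parental cells, no other cell line and no control exosomes analysed here. No difference between groups could be tested, no p-value was computed, and the number of arrays limits the precision of every value.

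A miRNA is cut from a hairpin precursor, and its 2 arms, 5p and 3p, can each be loaded into the silencing complex, where bases 2 to 8 (the seed) do most of the pairing with target mRNAs. In the miR-29 family the 3p arm is the usual guide strand and the 5p arm is usually degraded. The family is best known for repressing collagen, elastin, fibrillin and other extracellular matrix mRNAs in fibroblasts, so that loss of miR-29 goes with fibrosis in lung, heart, liver and kidney, and for repressing the DNA methyltransferases Dnmt3a and Dnmt3b in lung cancer cells. Neither collagen nor any other target mRNA was measured on these arrays.

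The 3p members are printed first because they show how alike the 3 targets of the probes are, with the seed in capitals and the sequences taken from RefSeq (GRCm38.p6), where all 6 members were matched by name. All 3 begin with the same 9 bases.
miR-29a-3p: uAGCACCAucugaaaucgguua
miR-29b-3p: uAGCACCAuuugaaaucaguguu
miR-29c-3p: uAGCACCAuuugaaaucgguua
The seed AGCACCA occurred in 3 of the 1679 mature mouse miRNAs of the RefSeq table, which were these 3 members. Counted from the 5′ end, miR-29a-3p and miR-29c-3p differ by the single substitution C10U, with miR-29a-3p as the reference. Against miR-29b-3p, miR-29a-3p has 4 substitutions over 22 aligned bases, C10U, G18A, U21G and A22U, and miR-29b-3p is 1 base longer. The most similar mature miRNA outside the family, miR-200a-3p, differed from miR-29a-3p at 9 positions when aligned at the 5′ end.

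The 5p arms are shown because, unlike the 3p arms, they do not share a seed (capitals, bases 2 to 8).
miR-29a-5p: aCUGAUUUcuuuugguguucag
miR-29b-1-5p: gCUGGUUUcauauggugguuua
miR-29c-5p: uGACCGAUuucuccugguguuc
Each of these 3 seeds occurred in 1 mature mouse miRNA only, out of 1679.

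The family comes from 4 hairpins at 2 loci. On the minus strand of chromosome 6, miR-29a-3p lies at chr6:31062673-31062694 and miR-29a-5p at chr6:31062711-31062732 in Mir29a, and miR-29b-3p lies at chr6:31063025-31063047 and miR-29b-1-5p at chr6:31063067-31063088 in Mir29b-1, with 275 bases between the hairpins. On the plus strand of chromosome 1, Mir29b-2 holds a second copy of miR-29b-3p at chr1:195037091-195037113. In Mir29c, which follows after 426 bases, miR-29c-5p lies at chr1:195037562-195037583 and miR-29c-3p at chr1:195037600-195037621. Because the 2 copies of miR-29b-3p are identical, its signal cannot be assigned to either locus.

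Each array held 30 spots for each member, divided over 2 probes, or over 4 probes for miR-29a-5p and miR-29b-1-5p, which made 16 probes in all. Intensities are given in arbitrary units after subtraction of the background by Feature Extraction, without normalization between arrays, as the mean over the spots of a probe and then over the probes of a miRNA. Spots marked as outliers were left out. The detection limit for a probe was a total signal of 3 times the error that the software estimates for it, and detection of a miRNA was the software's own call. As a measure of background, the negative control spots had a median of 0.619 and a brightest value of 9.45 in replicate 1, and a median of 0.739 and a brightest value of 9.35 in replicate 2.

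Of the 6 members, 1 was detected on both arrays, miR-29a-3p, or 16.7%, beside 11.5% of all 1881 miRNAs. In replicate 1, miR-29a-3p was the 1 member detected, against 13.5% of all miRNAs, and in replicate 2, miR-29a-3p and miR-29b-3p were the 2 members detected, against 11.9%. No 5p arm was detected on either array. Of the 16 probes, 1 was detected in replicate 1 and 2 in replicate 2, and the signals of the others ranged from 0.149 to 2.04 times their error in replicate 1, whereas the range was -0.157 to 1.66 times in replicate 2. A looser call required 50% or more of a probe's spots to be positive and significant against the local background on both arrays. Under it 4 members passed, adding miR-29b-3p, miR-29a-5p and miR-29b-1-5p, beside 24.7% of all miRNAs. A miRNA passed with 1 such probe. For miR-29a-5p this was probe 4 alone, with 4 of 7 spots on each array. Over all its probes, miR-29a-5p had 9 and 10 of 30 such spots. miR-29c-5p did not pass, with 10 and 14 of 30. Under a stricter call, with 50% or more of the spots well above background, 1 member passed, which was miR-29a-3p, beside 7.07% of all miRNAs.

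**Figure D1:**
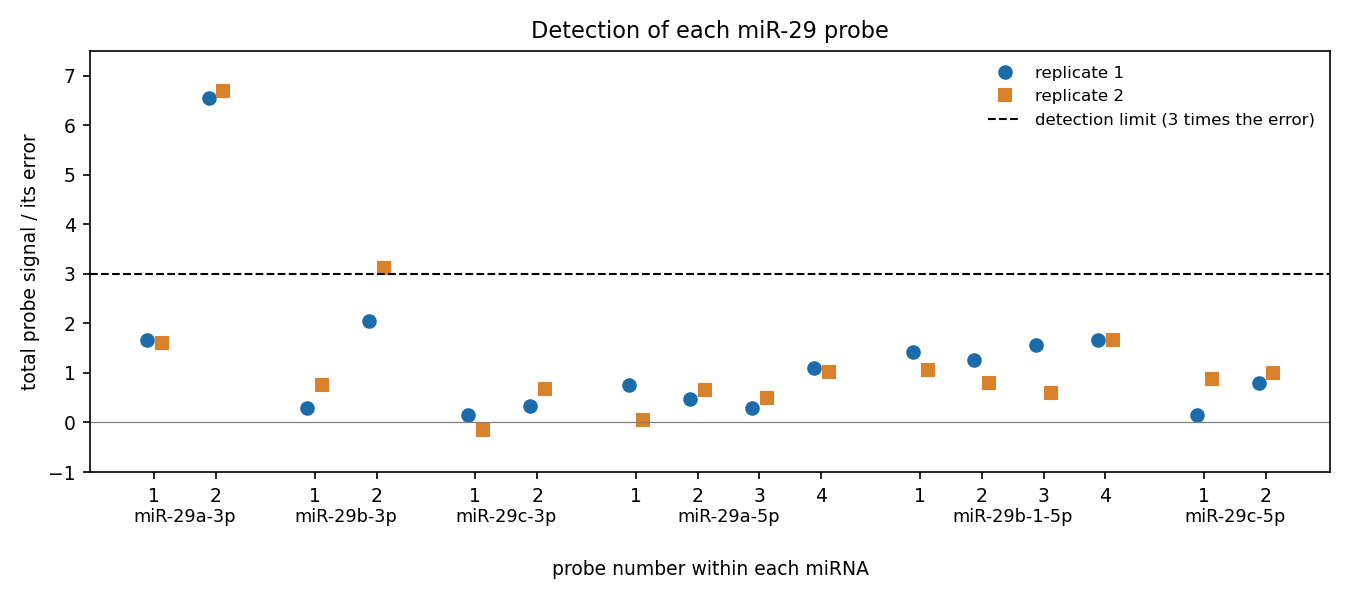
Total signal of each miR-29 probe divided by its error (vertical axis, no unit) for the 16 probes of the 6 members (horizontal axis) in replicate 1 (circles) and replicate 2 (squares), with the detection limit of 3 as a dashed line. Only probe 2 of miR-29a-3p lies above the limit in both replicates, at 6.55 and 6.70, and probe 2 of miR-29b-3p crosses it in replicate 2 alone, at 3.12 against 2.04.

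miR-29a-3p, the guide strand of Mir29a, had a mean intensity of 15.7 in replicate 1 and 16.3 in replicate 2. Most of this came from 1 of its 2 probes. Probe 2 had a mean of 26.3 ± 5.37 (SD over 15 spots) in replicate 1 and 27.6 ± 2.39 (SD over 14 spots) in replicate 2. Its dimmest spots, at 15.3 and 23.9, were above the brightest negative control spot of their arrays, and all 15 spots on each array were marked as well above background. Probe 1 had a mean of 5.08 ± 1.77 in replicate 1 and 4.96 ± 1.84 in replicate 2 (SD over 15 spots). It was not detected on either array, at 1.67 and 1.60 times its error, and 0 of its spots exceeded the brightest negative control spot, although 14 and 13 of the 15 were positive and significant against the local background. Thus the 2 probes disagreed on both arrays, and no fold between them is given because probe 1 was below the detection limit. The files used here give no probe sequences, so why the probes differ was not tested.

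**Figure D2:**
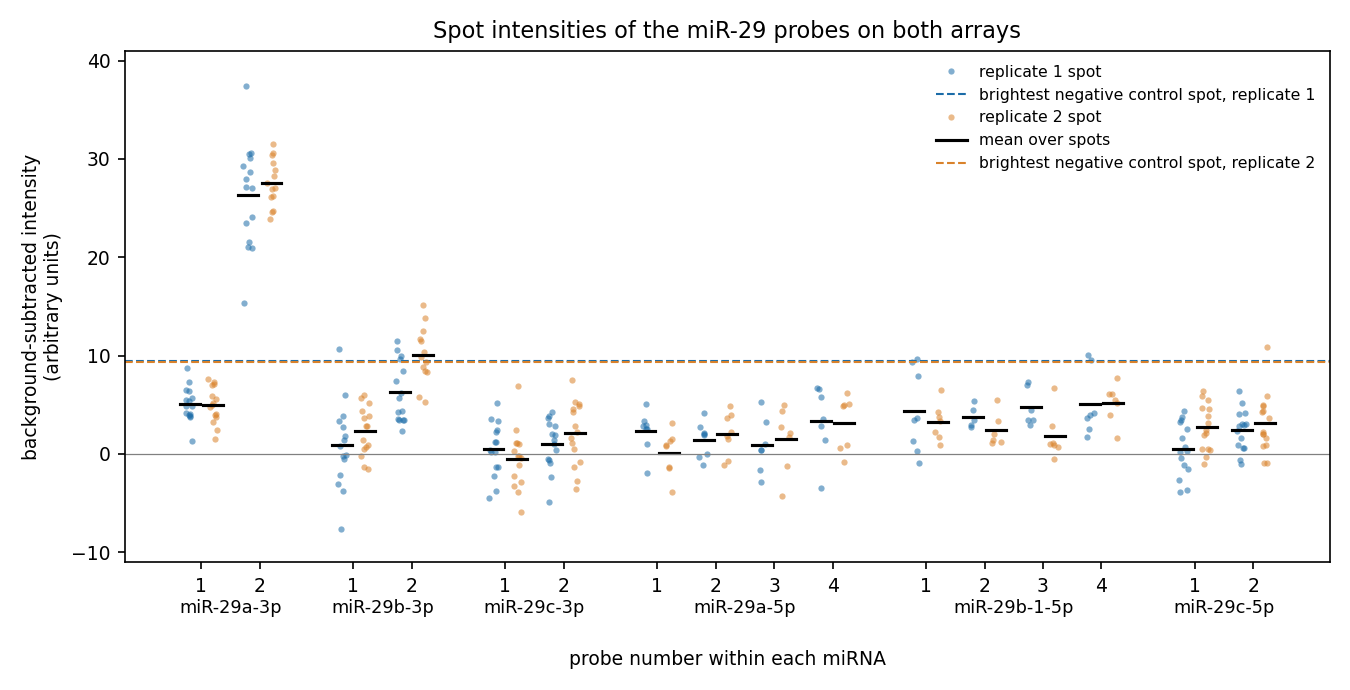
Background-subtracted intensity of every spot used (vertical axis, arbitrary units, linear) for the probes of the 6 members (horizontal axis), in replicate 1 (blue) and replicate 2 (orange), with black bars for the mean over spots and dashed lines for the brightest negative control spot of each array. The spots of probe 2 of miR-29a-3p stand apart, at 15.3 to 37.4 in replicate 1 and 23.9 to 31.6 in replicate 2, and those of probe 2 of miR-29b-3p straddle the dashed lines.

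miR-29b-3p, the guide strand made from both loci, lay at the limit of detection. Its mean intensity was 3.58 in replicate 1, where it was not detected, and 6.20 in replicate 2, where it was. The call rested on probe 2, whose mean was 6.28 ± 3.07 (SD over 15 spots) in replicate 1 and 10.1 ± 2.86 (SD over 13 spots) in replicate 2. That probe had 4 of 15 spots above the brightest negative control spot in the first array and 8 of 13 in the second. Probe 1 had means of 0.878 and 2.33 and was not detected on either array. None of the 30 spots of miR-29b-3p was well above background in either replicate, with a count of 0 on both arrays. Detection in 1 of 2 experiments does not show that the amount of miR-29b-3p differed between them.

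miR-29c-3p, which differs from miR-29a-3p at position 10 alone, was at the level of the negative controls. Its mean intensity was 0.727 in replicate 1 and 0.804 in replicate 2, beside the negative control medians of 0.619 and 0.739. Its 4 probe means, 2 on each array, ranged from -0.481 to 2.09. The highest spot of miR-29c-3p, at 5.19 in replicate 1 and 7.47 in replicate 2, was below the dimmest spot of probe 2 of miR-29a-3p. Probe 1 of miR-29a-3p, however, had spots of 1.27 to 8.74 in replicate 1 and 1.53 to 7.62 in replicate 2, which overlapped with those of miR-29c-3p. How far each probe binds the other members was not tested.

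The 5p arms, which are usually the passenger strands, stayed under the detection limit on all 10 of their probes in both replicates. The brightest of them was miR-29b-1-5p, with mean intensities of 4.49 in replicate 1 and 3.16 in replicate 2. Its 4 probes lay between 1.25 and 1.67 times their error in replicate 1 and between 0.595 and 1.66 times in replicate 2, and 3 of 26 spots in replicate 1 and 0 of 27 in replicate 2 exceeded the brightest negative control spot. Among the 1621 miRNAs detected on neither array, 94.1% had a lower mean intensity than miR-29b-1-5p in replicate 1 and 90.7% in replicate 2. miR-29a-5p had mean intensities of 1.98 and 1.68, and miR-29c-5p of 1.43 and 2.89. The 5p arm of the second miR-29b hairpin, miR-29b-2-5p, which is not among the 6 members, was at -0.273 and -0.707 and was not detected.

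Ordered by mean intensity over the 2 arrays, miR-29a-3p came first, with 15.7 and 16.3 on the 2 arrays and an SD of 0.396, followed by miR-29b-3p with 4.89 ± 1.85, miR-29b-1-5p with 3.82 ± 0.942, miR-29c-5p with 2.16 ± 1.04, miR-29a-5p with 1.83 ± 0.208 and miR-29c-3p with 0.766 ± 0.0543 (SD, n = 2 arrays). The values of miR-29a-3p did not overlap with those of any other member. The ranges of miR-29b-3p and miR-29b-1-5p overlapped, and so did those of miR-29c-5p and miR-29a-5p, so these neighbours did not differ beyond their spread. From miR-29b-1-5p downwards no member was detected on either array, so the order there is one of signals below the detection limit. Ranges over 2 arrays that do not overlap do not show a difference there. Within Mir29a the 3p arm gave the higher signal on both arrays, whereas within Mir29c the 5p arm did, where neither arm was detected. Binding strength is not the same for every probe, so the order concerns signals, and the amounts of the miRNAs may be ordered differently.

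To place miR-29a-3p among the other miRNAs, intensities were scaled within each array. The divisor was the 75th percentile among the 393 probes with detection in both replicates, which was 50.2 in replicate 1 and 40.0 in replicate 2, and the log2 was averaged over spots and probes. A level of 0 is a signal at that percentile. The level of miR-29a-3p was -2.18 in replicate 1 and -1.83 in replicate 2, or -2.01 ± 0.25 (SD, n = 2 arrays). Before the scaling, its log2 intensity differed by 0.02 between the replicates, and after it by 0.35, since the divisors themselves differ by 0.33 on the log2 scale. The median difference without regard to sign over the 216 miRNAs detected on both arrays was also 0.35, so its replicates lay as far apart as is typical here. Its rank by signal was 150 among the 216, with 69.0% of them above it, and it was 163 in replicate 1 and 140 in replicate 2. With the brightest probe of every miRNA in place of the average, the level was -0.75 and the rank 83, and with the sum of the detected probes of every miRNA the rank was 135.

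The 5 miRNAs with the most similar levels, by Euclidean distance over the 2 arrays, were miR-6968-3p at a distance of 0.01, miR-15a-3p at 0.05, let-7f-1-3p at 0.08, miR-290a-3p at 0.09 and miR-8103 at 0.12 on the log2 scale. With 2 arrays of 1 group, this says only that their signals were alike. Levels were given only to miRNAs detected on both arrays, so the other members have none. Each of these members also had some spots at or below 0.

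**Figure D3:**
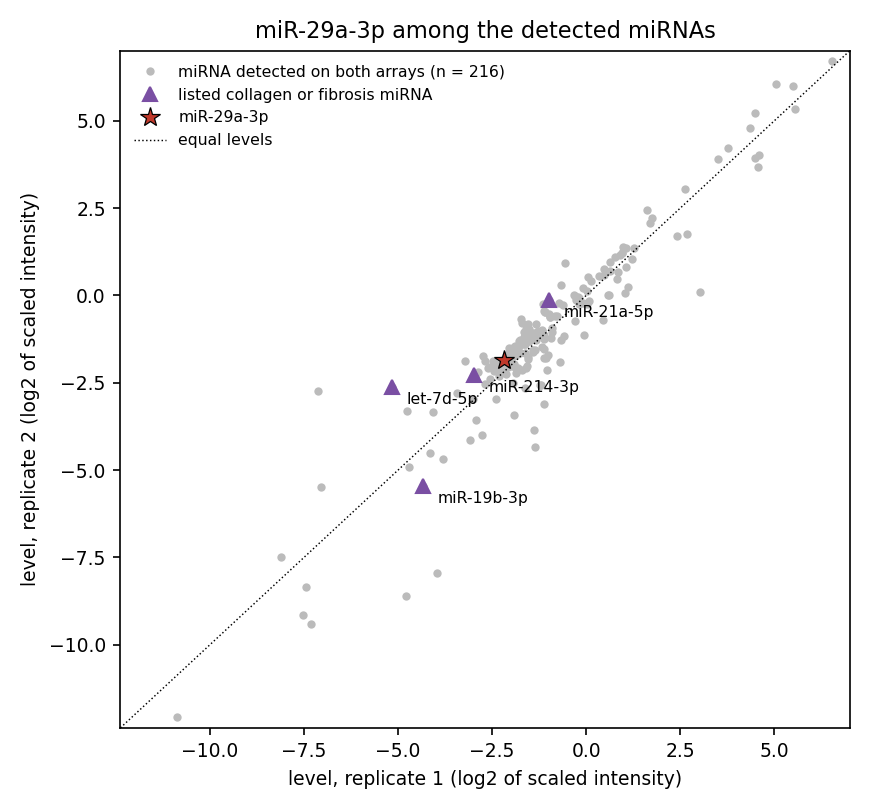
Level of each of the 216 miRNAs detected on both arrays in replicate 1 (horizontal axis) and replicate 2 (vertical axis), as log2 of the scaled intensity, with miR-29a-3p as a star, the 4 detected miRNAs of the collagen and fibrosis lists as triangles and a dotted line at equal levels. miR-29a-3p sits at -2.18 and -1.83, inside the main cloud and close to the line, below miR-21a-5p and above miR-214-3p.

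miR-29 is one of several miRNAs that are known to act on collagen deposition, and the others were read from 2 lists based on general knowledge. Of 19 miRNAs described as restraining collagen or fibrosis, among them the 5 of the miR-30 family, 2 were detected on both arrays, or 10.5%, close to the 11.5% of all miRNAs. They were let-7d-5p, with intensities of 8.82 and 12.4, and miR-19b-3p, which represses connective tissue growth factor, with 12.6 and 12.2. Of 7 miRNAs described as promoting fibrosis, 2 were detected on both arrays, or 28.6%, beside the same 11.5%. They were miR-21a-5p, with intensities of 40.5 and 54.9, and miR-214-3p, with 14.5 and 12.7. The median intensity of the restraining list was 1.07 in replicate 1 and 1.26 in replicate 2. That of the promoting list was 2.81 and 2.14, and that of all 1881 miRNAs was 0.46 and 0.22. The negative control spots had an SD of 2.48 around their median of 0.619 in replicate 1, and of 2.72 around 0.739 in replicate 2. These SDs are over single spots, so they do not measure the spread of a median over miRNAs. Whether the list medians differ from background or from each other was not tested, and they are not used to order the lists. By mean intensity, miR-29a-3p was below miR-21a-5p and above the 3 other listed miRNAs that were detected, on each array.

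The guide strands were set beside those of 3 other families that share a seed. Of the 3 in the miR-29 family 1 was detected on both arrays, against 0 of 5 for miR-30, a family that also represses connective tissue growth factor, 1 of 6 for miR-15/16, regulators of the cell cycle, and 7 of 9 for let-7 and miR-98. The highest mean intensity in the miR-30 family was 7.70 in replicate 1 and 6.12 in replicate 2, for miR-30d-5p, and in the miR-15/16 family it was 9.33 and 14.6, for miR-15b-5p. The mean intensity of miR-29a-3p was above these on both arrays, although the log2 level of miR-15b-5p, -2.73 in replicate 1 and -1.73 in replicate 2, exceeded that of miR-29a-3p in replicate 2. The miR-15/16 family also had miR-322-5p detected in replicate 2 alone. In the let-7 family the highest was let-7b-5p with 96.4 and 60.6. These families were not compared by a test, and with 11.5% of all miRNAs detected on both arrays, counts of 0 or 1 in families of this size are not particular to them.

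**Figure D4:**
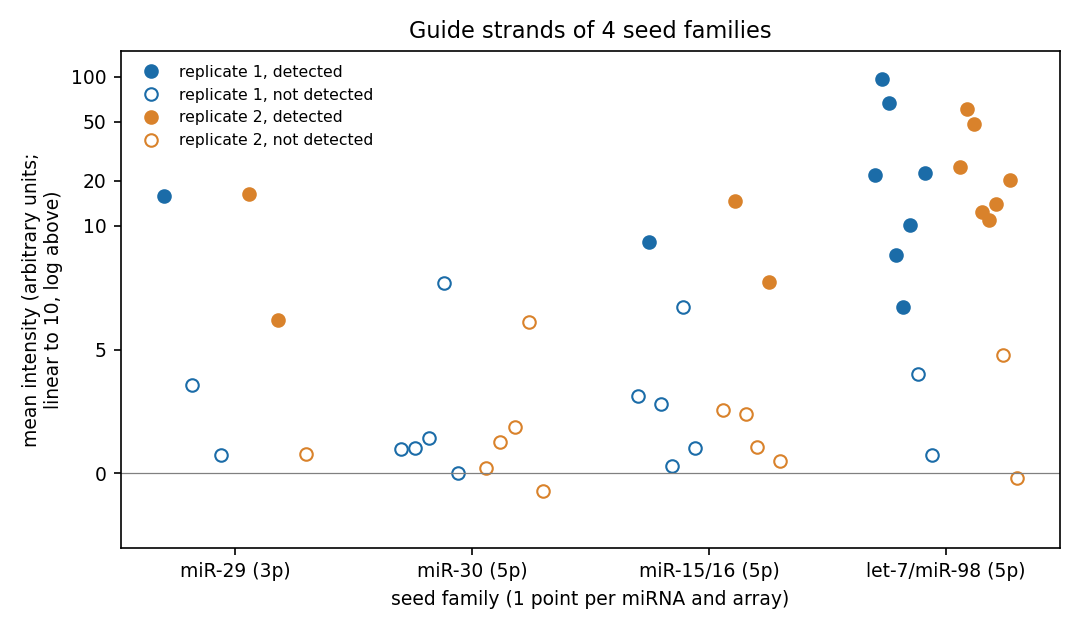
Mean intensity of each guide strand (vertical axis, arbitrary units, linear up to 10 and logarithmic above) in the miR-29, miR-30, miR-15/16 and let-7/miR-98 families (horizontal axis), with filled points for detected and open points for undetected miRNAs in replicate 1 (blue) and replicate 2 (orange). The miR-29 family has 1 filled point in replicate 1, at 15.7, and 2 in replicate 2, at 16.3 and 6.20, whereas the miR-30 family has 0.

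Markers of other cells were checked in the same way, since the labels mention a kit made for blood. Of the red blood cell markers 0 of 3 were detected on both arrays, of the white blood cell markers 0 of 4, and of liver 0 of 1. These are few markers beside a share of 11.5% among all miRNAs. The summed intensity was 6.18 and 6.55 over the red blood cell markers, of which the brightest was miR-486a-5p with 4.87 and 4.51. It was 7.13 and 8.73 over the white blood cell markers, of which the brightest was miR-223-3p with 6.92 and 8.15. Of the muscle markers 1 of 3 was detected, which was miR-206-3p, with intensities of 27.1 and 21.4. Its part in the signals of the miR-29 family was not tested.

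Feature Extraction also reports a summed signal for every miRNA it calls detected, and for this family those totals went beyond the family's own probes. The total of miR-29a-3p was 7.88 in replicate 1, while its detected probe summed to 5.59, and 8.34 against 5.85 in replicate 2. The excess of 2.29 in replicate 1 and 2.49 in replicate 2 equalled, within 0.1%, the total of miR-298-5p on the same array. The total of miR-29b-3p in replicate 2 was 10.5, or 4.91 times the 2.13 of its own detected probe, and the excess of 8.34 equalled the total of miR-29a-3p within the same tolerance. By these totals miR-29b-3p would appear above miR-29a-3p in replicate 2, whereas by spot intensity it was below, at 6.20 against 16.3. In all 3 cases the first probe of the miRNA was not detected. In the authors' deposited log2 table miR-29a-3p had values of 2.29 and 2.73, and miR-29b-3p had the lowest value of the table, -3.32, in replicate 1 and 0.39 in replicate 2. The other 4 members were at -3.32 in both columns.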

How the data were processed

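RNA of LLC-derived exosomes was hybridized to 2 Agilent mouse miRNA microarrays. The authors deposited the fluorescence intensity of each spot from Feature Extraction, version 10.7.1.1 per the file headers and 9.1 per the processing notes, after background subtraction, and the arrays were not normalized to each other. The authors also deposited a log2 table. Both of its columns have a median of -3.32, which is also their lowest value. Every member not called detected on an array has this value there, so it does not rank those members. The scale and centring of the table stay unknown. The labels describe a blood RNA kit and cRNA labelling, and whether these were used here was not settled.

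Control spots and outlier spots were left out, and 0 miRNA spots were saturated. For log2 levels, values of 0 or less took the smallest positive value found on that array, and spots and then probes were averaged. The miRNAs named were the members, those sharing their seed, the 5 nearest miRNAs and the detected miRNAs of fixed lists, besides miR-29b-2-5p. miR-298-5p, miR-200a-3p, miR-30d-5p, miR-322-5p, miR-486a-5p and miR-223-3p were named after their values were seen. Members and lists were chosen with earlier results of these data known. Alternatives covered the detection call, scaling, background correction, probe summary, outlier spots and each replicate.

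Python 3.11.15, numpy 2.4.6, pandas 2.3.3 and R 4.3.3 with limma 3.58.1 (normexp, offset 50) were used. Detection and the scaled level were tested on simulated data in which 200 of 1881 miRNAs carried signal. All 200 were detected on both arrays. The simulated signals were not matched to the mean intensity of miR-29a-3p and lay above those of every other member. All probes of a miRNA carried the same signal. The simulation therefore does not show how detection works at the intensity of miR-29a-3p, or for the dim and unequal probes of this family.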

Additional observations from a re-analysis of the deposited data

How the results depend on the processing

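By the mean over arrays, the order miR-29a-3p, miR-29b-3p, miR-29c-3p was the same under the 11 alternatives run, although those that only rescale an array could not change it. Under 3 of them it did not hold on each array. By the totals of Feature Extraction miR-29b-3p was at 10.5 and miR-29a-3p at 8.34 in replicate 2, and in replicate 1 miR-29b-3p and miR-29c-3p shared the lowest value by those totals, by the sum of detected probes and in the authors' log2 table. The level of miR-29a-3p, -2.01 in the report, was 2.21 with the 75th percentile over all probes, 3.48 without scaling and 2.51 in the authors' log2 table, all on other scales. Normexp background correction gave -0.50, the brightest probe -0.75, the sum of its own detected probes -1.51 and the total of Feature Extraction -1.70. Averaging spots and probes before the log2, which was chosen after seeing the data, gave -1.49. Its rank of 150 became 125 with normexp, 83 with the brightest probe and 121 with averages before the log2. For these the cause was not tested. The number of members detected on both arrays, 1, was 4 under the looser call and 1 under the stricter call on the flags of the spots. Leaving out either replicate gave 1 to 2 members detected (2 without replicate 1, the second being miR-29b-3p), levels of miR-29a-3p from -2.18 to -1.83, and ranks between 140 and 163. Of 15 mean intensities of the other 5 members under alternatives that kept both arrays, 6 stayed within the SD of the 2 arrays and 9 were higher, all with the brightest probe or with normexp, whose offset raises every value. Scaling, totals and the log2 table were not run for these 5 as levels, since they have none. No paired analysis was possible because the 2 arrays belong to 1 group. Signal over background limits every value of the family except that of probe 2 of miR-29a-3p.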
